A study of Mus musculus with 6 samples.

Results

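Dendritic cells of the mouse aorta were followed in single-cell RNA sequencing of whole aortas from mice on a high-fat diet and from control mice. Of 59413 cells with at least 300 detected genes and less than 20% mitochondrial transcripts, 741 were taken as dendritic cells. A member had at least 2 unique molecular identifiers (UMIs, counted transcript molecules) of Flt3, Cd209a, Xcr1, Clec9a and Ccr7 together, and at least 10 of H2-Aa and Cd74 together. It had at most 1 UMI of the macrophage complement gene C1qa and none of the B-cell gene Cd79a or the T-cell gene Cd3e. These 10 genes chose the members, so their levels are given as a description with no test. The shares of cells they define are compared by diet, which the choice did not use.

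The 6 samples were aortas of C57B/6J mice aged 18 weeks, 3 labelled high-fat diet and 3 labelled control, and the series' design text gives the control diet as normal. The labels name no transgene, induced disease or other agent, and do not give the length of the diet, the sex, or whether a sample was 1 aorta or a pool. Aortas were digested with collagenase and DNase, red cells were lysed, and 3' single-cell libraries were made with the 10x Genomics droplet system. The high-fat diet samples gave 94, 97 and 95 dendritic cells (286 in all) and the control samples 26, 337 and 92 (455 in all).

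Dendritic cells are the leukocytes that take up antigen in a tissue, load its peptides on MHC class II and class I molecules, and carry them to lymph nodes to start T-cell responses. Conventional dendritic cells arise from Flt3-dependent precursors in 2 lines. Type 1 cells depend on IRF8 and BATF3, bear XCR1 and CLEC9A and are known for presenting the contents of dead cells to CD8 T cells. Type 2 cells use IRF4, often bear CD209a, SIRPa and CD11b and are known for presenting to CD4 T cells. On maturation either kind raises CCR7, the receptor for the lymph node chemokines CCL19 and CCL21, and in the artery wall such cells are found mainly in the adventitia.

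The libraries held between 41388034 and 83886418 UMIs and gave 6552 to 16568 kept cells each. The second control library gave the most cells and 337 of the 455 control members, and the first control library stood apart with 26 members and 135413 dendritic UMIs, against 577561 to 2283602 in the other 5. Every sample's barcodes carry a suffix of 1 or 2, and the split of members between suffixes differed, with 67, 10 and 69 members of suffix 1 against 27, 87 and 26 of suffix 2 in the high-fat diet samples, and 12, 145 and 16 against 14, 192 and 76 in the control samples. Between 61 and 235 cell barcodes were shared by a pair of libraries. Nothing in the labels says that the 3 samples of a group are separate animals, so p-values measure the spread between these samples, which may be technical.

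A lineage gene that the choice did not use set the members apart from macrophages more clearly than from endothelial cells. Zbtb46, the transcription factor of the conventional dendritic lineage, had a UMI in 14.8% of the 741 cells, with a 95% Wilson interval from 12.5% to 17.6%, and in 3.89% of 6652 macrophages. Endothelial cells, which also transcribe it, had a UMI in 11.6%. Macrophages were cells with at least 3 UMIs of Csf1r, Cd68, Adgre1 and Fcgr1 together that were not members. Of the genes that chose the cells, Flt3, the receptor of the dendritic growth factor, was seen in 34.7% of members, 1.73% of macrophages and 0.289% of 3464 endothelial cells, which lack it. Median depth per sample was 4573 to 7936 UMIs in members, 3413 to 5357 in macrophages and 3636 to 6907 in endothelial cells. Cd209a, a C-type lectin, was seen in 475 of the 741 members, Clec9a, the receptor for exposed actin, in 234, Xcr1, the receptor of the chemokine XCL1, in 203, and Ccr7 in 48. C1qb, a macrophage complement gene, had a UMI in 41.3% of members and in 47.7% of endothelial cells, and in 33.2% to 65.4% of members by sample.

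Many cells lay near the thresholds. Cells just inside, with 2 or 3 UMIs over the dendritic genes, numbered 138 and 109, and cells just outside, with 1 such UMI and all other conditions met, numbered 227. A further 140 cells were left out with 2 UMIs of C1qa, and 548 cells met the rest of the rule but held Cd79a or Cd3e, of which 36 were in high-fat diet samples and 512 in control samples. A doublet score above 0.25 was given to 15 members, and 168 members also met the macrophage rule.

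Class II antigen presentation set the dendritic cells apart from the macrophages of the same aortas. All 9 tested genes of the class II list other than those in the rule were higher in dendritic cells, with a median log2 fold change of 1.99. Members had to hold at least 10 UMIs of H2-Aa and Cd74 and macrophages did not. Class II genes expressed with these can therefore differ through the choice of cells alone. Across 12380 genes tested in edgeR on UMI counts summed per sample and cell class, with the sample as a block and Benjamini-Hochberg adjustment at 0.05, 37.4% were called, 16.1% higher and 21.2% lower in dendritic cells, and the median of all genes was -0.12. Levels are given in CPM, the UMIs of a gene per 1000000 UMIs of the cell class.

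The promoters of class II genes carry the Y box, an element bound by NF-Y, and 3 are shown as examples from the class II list. In the RefSeq windows of GRCm38.p6, from 250 bases before to 50 after the start site, the Y-box core ATTGG or its other strand CCAAT was searched on both strands, and capitals mark each match. It was present in 7 of the 8 windows of the 7 matched genes, the exception being one of the windows of H2-DMa, and in 37.4% of 32851 promoter windows in the table, so the letters alone are common. Of the 9 listed genes H2-Ab1 and Ciita had no matched window. In the other window of H2-DMa the match begins 198 bases before the start, farther out than in the other genes. In H2-Eb1 the matches begin 59 and 35 bases before the start, in H2-DMb1 61 bases before and in H2-Ob 57 bases before.
H2-Eb1 chr17:34305617-34305916 (+): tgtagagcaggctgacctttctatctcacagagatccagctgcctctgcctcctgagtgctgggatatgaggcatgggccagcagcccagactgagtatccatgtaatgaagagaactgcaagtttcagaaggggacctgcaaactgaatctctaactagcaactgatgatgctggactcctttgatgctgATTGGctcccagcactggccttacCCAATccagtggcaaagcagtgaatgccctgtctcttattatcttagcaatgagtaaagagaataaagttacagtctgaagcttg
H2-DMb1 chr17:34152941-34153240 (+): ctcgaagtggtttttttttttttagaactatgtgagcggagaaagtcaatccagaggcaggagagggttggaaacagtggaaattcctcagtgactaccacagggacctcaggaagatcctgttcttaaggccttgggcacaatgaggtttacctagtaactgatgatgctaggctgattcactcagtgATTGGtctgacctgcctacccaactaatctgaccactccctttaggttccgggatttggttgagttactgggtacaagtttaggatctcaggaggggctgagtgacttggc
H2-Ob chr17:34238655-34238954 (+): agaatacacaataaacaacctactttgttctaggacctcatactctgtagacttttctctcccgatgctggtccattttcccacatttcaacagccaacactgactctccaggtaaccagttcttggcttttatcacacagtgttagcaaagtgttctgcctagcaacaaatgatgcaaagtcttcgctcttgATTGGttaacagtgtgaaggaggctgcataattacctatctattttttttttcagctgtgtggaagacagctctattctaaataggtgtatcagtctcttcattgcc

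H2-Ab1, the beta chain of the class II molecule I-A, lay at 6883, 13228 and 15369 CPM (lowest, median and highest of 6 samples) in dendritic cells, against 2151, 3564 and 5509 CPM in macrophages. The ranges did not overlap, and the log2 fold change was 1.80 ± 0.10 (SE; adjusted p = 2.56e-16, edgeR, 6 of 6 samples). H2-Eb1, the beta chain of I-E, spanned 4480 to 11506 CPM in dendritic cells and 1788 to 4466 CPM in macrophages, without overlap. H2-DMa, part of the peptide exchange factor that loads class II, was higher by 1.66 on the log2 scale, with 583 to 1505 CPM in dendritic cells and 222 to 549 CPM in macrophages. H2-Ob, a chain of the DO molecule that restrains that exchange, spanned 72.8 to 176 CPM in dendritic cells and 11 to 56.7 CPM in macrophages, a log2 change of 2.93 ± 0.27 (SE). Ciita, the transactivator on which class II genes depend, held 60.8 to 80.1 CPM in dendritic cells and 10.1 to 23.2 CPM in macrophages, with a log2 change of 1.99 (adjusted p = 3.02e-12, edgeR).

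Lineage genes followed the same division. All 18 tested genes of the dendritic lineage list were higher in dendritic cells, with a median log2 fold change of 2.41, and 16 of 17 type 1 genes were higher, with a median of 2.47. The type 1 difference lay mainly in the Xcr1/Clec9a cells defined below, 203 of the members. Their summed type 1 list spanned 6649 to 7559 CPM by sample. That of the Cd209a cells, 432 of the members, spanned 651 to 883 CPM, against 734 to 1019 CPM in macrophages. Zbtb46 spanned 21.8 to 38.0 CPM in dendritic cells and 6.26 to 10.4 CPM in macrophages, a log2 change of 1.89 ± 0.21 (SE). Plbd1, a lysosomal phospholipase-like protein, spanned 419 to 677 CPM in dendritic cells and 51.3 to 140 CPM in macrophages, and Napsa, an aspartic protease, 255 to 630 CPM in dendritic cells against 33.6 to 126 CPM in macrophages. Irf8, the type 1 transcription factor, lay at 425, 663 and 873 CPM in dendritic cells against 86.5, 132 and 198 CPM in macrophages, a log2 change of 2.31 (adjusted p = 1.45e-16, edgeR). Of the 15 tested type 2 genes 4 were higher and 2 lower, among them Clec4b1, higher by 1.45, and Sirpa, an inhibitory receptor that macrophages also bear, lower by 0.93 on the log2 scale. Clec10a, a galactose-type lectin, had medians of 242 CPM in dendritic cells and 292 CPM in macrophages and did not pass (adjusted p = 0.288, edgeR).

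Genes of macrophage function ran the other way. All 18 tested resident macrophage genes were lower in dendritic cells, with a median log2 fold change of -4.38. Members were held to at most 1 UMI of C1qa, and macrophages were chosen by at least 3 UMIs of macrophage genes. Genes expressed with these can therefore be lower in members through the choice of cells alone. Maf, a transcription factor of resident macrophages, had 10.9, 13.7 and 31.6 CPM in dendritic cells against 364, 640 and 841 CPM in macrophages, a log2 change of -5.18 ± 0.20 (SE; adjusted p = 5.00e-19, edgeR). C5ar1, the C5a receptor, spanned 0 to 9.11 CPM in dendritic cells and 114 to 380 CPM in macrophages. Its log2 change of -5.69 was the largest decrease among the genes named by the rule for this comparison. Vcam1, an adhesion molecule for leukocytes and a gene of the study's title, was lower by 2.15 on the log2 scale, and Klf2, the flow-responsive transcription factor of that title, by 0.55.

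Antigen processing was divided rather than raised. Of 15 tested endolysosomal genes 5 were higher and 7 lower in dendritic cells. Cst3, an inhibitor of cysteine cathepsins, spanned 8097 to 18651 CPM in dendritic cells and 3781 to 6263 CPM in macrophages, while Ctsb, a cathepsin, spanned 288 to 328 CPM in dendritic cells and 990 to 2019 CPM in macrophages. Lgmn, the asparaginyl endopeptidase, was lower by 2.96 on the log2 scale. In the class I list 7 of 12 tested genes were higher and none lower, among them the immunoproteasome subunits Psmb8 (407 to 878 CPM in dendritic cells, 156 to 390 CPM in macrophages) and Psmb9, and the peptide transporter Tap1. Of the costimulation list 3 of 10 were higher and 1 lower, and Cd86 did not pass, with medians of 52.2 CPM in dendritic cells and 62.2 CPM in macrophages (adjusted p = 0.407, edgeR).

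Other groups separated the 2 classes as well. Of 16 tested cell cycle genes 9 were higher in dendritic cells and none lower, with Mki67, a marker of dividing cells, at 18.2, 42.0 and 92.8 CPM in dendritic cells and 17.4, 21.1 and 41.3 CPM in macrophages. These ranges overlapped across samples, but dendritic cells were above macrophages in 6 of 6 samples, with a log2 change of 0.99 ± 0.18 (SE; adjusted p = 2.17e-05, edgeR). Of 16 cholesterol synthesis genes 8 were higher and none lower in dendritic cells. Of 12 genes of sterol efflux 5 were lower and 1 higher, and Abca1, the cholesterol exporter, was lower by 3.29 on the log2 scale. Ccr2, the receptor for the monocyte chemokine CCL2, spanned 344 to 551 CPM in dendritic cells and 90.5 to 149 CPM in macrophages, although 9 of the 14 tested monocyte genes were lower. Ccl22, Ccl17 and Fscn1, genes of mature dendritic cells, were called with log2 changes of 5.45, 3.46 and 3.27, but each call was lost without some of the samples, for Ccl22 without the second high-fat diet sample (adjusted p = 0.0501, edgeR). The part of the difference in depth per cell, given above, was not tested. Genes expressed together with those of the rule can differ through the choice of cells.

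**Figure D1:**
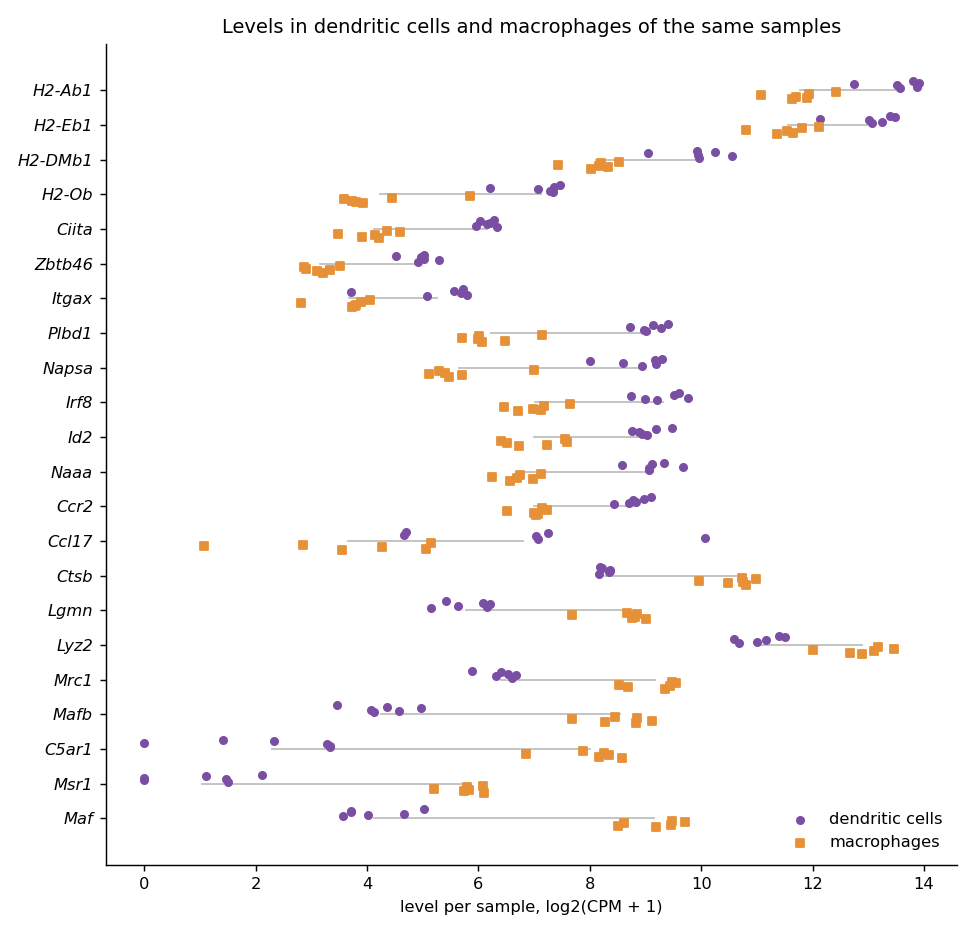
Levels of genes outside the rule in dendritic cells (purple circles) and macrophages (orange squares), as log2(CPM + 1), with a point for each of the 6 samples and a line between the class means. Class II and lineage genes stand higher in dendritic cells, for example Ciita at 60.8 to 80.1 CPM in dendritic cells and 10.1 to 23.2 CPM in macrophages, and genes from Ctsb down to Maf stand lower.

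The 741 cells fell into subsets by the same rule genes. A cell with at least 2 UMIs of Ccr7 was called a Ccr7 cell (33 cells), one of the others with at least 2 UMIs of Xcr1 and Clec9a together, and more of these than of Cd209a, an Xcr1/Clec9a cell (203), and one of those left with at least 2 UMIs of Cd209a a Cd209a cell (432). The other 73 cells reached none of these. The classes were nearly exclusive, since 3 cells had 2 UMIs of both Xcr1/Clec9a and Cd209a, and 1 cell had 2 of both Ccr7 and Cd209a. In the high-fat diet samples there were 30, 19 and 45 Xcr1/Clec9a cells and 53, 59 and 38 Cd209a cells, and in the control samples 6, 77 and 26 Xcr1/Clec9a cells and 17, 216 and 49 Cd209a cells.

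Genes that had no part in this division separated the Xcr1/Clec9a cells from the Cd209a cells along the lists of type 1 and type 2 genes. The sums of 5 samples entered the test, since the first control sample had only 6 Xcr1/Clec9a cells. In edgeR with the sample as a block, 20.2% of 4355 genes were called, 10.1% in each direction, and the median of all genes was -0.01. Of the type 1 list 15 of 16 tested genes were higher in Xcr1/Clec9a cells and none lower, with a median log2 fold change of 4.07. Of the type 2 list 11 of 12 were lower and 1 higher, with a median of -3.33.

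Irf8 (chr8:120736358-120756694, plus strand, GRCm38) had 1317, 1556 and 1471 CPM in the high-fat diet and 1983 and 2017 CPM in the control samples of Xcr1/Clec9a cells, against 20.4, 10.7 and 9.14 CPM and 49.1 and 55.9 CPM in the same samples of Cd209a cells. Every Xcr1/Clec9a value exceeded every Cd209a value, and the log2 fold change was 5.72 ± 0.17 (SE; adjusted p = 3.93e-21, edgeR). At the level of cells Irf8 was seen in 98.5% of Xcr1/Clec9a cells, 10.9% of Cd209a cells and 9.56% of endothelial cells, so its detection in Cd209a cells was near the level in endothelial cells. It was also below that in macrophages, of which 35.55% had a UMI of Irf8. Irf4, the type 2 transcription factor (chr13:30749226-30766976, plus strand), had 4.39, 0, 9.83, 0 and 0 CPM in Xcr1/Clec9a cells and 40.7, 34.3, 77.7, 64.2 and 52.8 CPM in Cd209a cells, high-fat diet samples 1 to 3 first and control samples 2 and 3 after them. The groups again did not overlap, with a log2 change of -4.29 ± 0.47 (SE; adjusted p = 1.47e-11, edgeR). Batf3, the partner of IRF8 in type 1 cells, differed far less, at 199 ± 35.2 CPM in Xcr1/Clec9a cells and 138 ± 18.5 CPM in Cd209a cells (SD, n = 5 each), a log2 change of 0.55 (adjusted p = 0.00483, edgeR).

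Further type 1 genes were higher in Xcr1/Clec9a cells. Wdfy4, which type 1 cells need to cross-present, averaged 307 ± 70.4 CPM in Xcr1/Clec9a cells and 68.4 ± 17.1 CPM in Cd209a cells (SD, n = 5 each), a log2 change of 2.12. Tlr3, the receptor for double-stranded RNA, had 63.8 to 184 CPM in Xcr1/Clec9a cells and 0 to 4.57 CPM in Cd209a cells. Naaa, a lysosomal amidase and type 1 marker, averaged 1187 ± 149 CPM in Xcr1/Clec9a cells and 232 ± 62.0 CPM in Cd209a cells. Itgae, the CD103 integrin chain, had 24.7 to 65.8 CPM in Xcr1/Clec9a cells and a UMI in only 1 sample of Cd209a cells, at 0.892 CPM. Barx2, a homeobox gene, and Gcsam, a signalling adaptor of lymphoid cells, had no UMI in Cd209a cells. Against a floor of 3 UMIs over the group, Gcsam was at least 78.1-fold higher in Xcr1/Clec9a cells.

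Type 2 genes were lower in Xcr1/Clec9a cells. Mgl2, a galactose lectin known as CD301b, averaged 14.7 ± 10.3 CPM in Xcr1/Clec9a cells and 873 ± 390 CPM in Cd209a cells (SD, n = 5 each), with a log2 change of -6.03 ± 0.20 (SE; adjusted p = 2.96e-35, edgeR). Clec10a averaged 14.0 CPM in Xcr1/Clec9a cells and 423 CPM in Cd209a cells, Itgam, the CD11b chain, 7.77 CPM and 147 CPM in that order, and Sirpa 8.68 CPM and 91.0 CPM in that order. Each was lower in Xcr1/Clec9a cells, without overlap between the subsets. Macrophages carried these genes as well. Mgl2 was seen in 67.4% of Cd209a cells and 72.7% of macrophages, and Clec10a in 66.2% and 56.9% in that order. Itgam was seen in 48.6% and 38.6%, and Sirpa in 38.0% and 41.7%. Mrc1, a gene of the resident macrophage list, was seen in 42.6% of Cd209a cells, 6.40% of Xcr1/Clec9a cells and 83.5% of macrophages. Its part in the difference between the subsets was not tested. Mcemp1 had no UMI in Xcr1/Clec9a cells and 265 in Cd209a cells, and was at least 53.5-fold lower in Xcr1/Clec9a cells against a floor of 3 UMIs over the group. Ifitm3, an interferon-induced antiviral protein, averaged 554 ± 146 CPM in Xcr1/Clec9a cells and 2426 ± 437 CPM in Cd209a cells.

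Antigen presentation itself was split between the subsets. The class II genes H2-Ab1 and H2-Eb1 were lower in Xcr1/Clec9a cells by small amounts. H2-Ab1 averaged 11050 ± 983 CPM in Xcr1/Clec9a cells and 14745 ± 1477 CPM in Cd209a cells (SD, n = 5 each), a log2 change of -0.41 ± 0.07 (SE; adjusted p = 6.11e-07, edgeR), and of 8 tested class II genes 4 were lower and 1 was higher. The one higher was H2-Ob, with 177 to 221 CPM in Xcr1/Clec9a cells and 68.6 to 137 CPM in Cd209a cells, while H2-DMb2, a chain of the exchange factor, was lower by 1.68. Cathepsin S (Ctss), which trims the invariant chain, averaged 391 ± 34.9 CPM in Xcr1/Clec9a cells and 1226 ± 202 CPM in Cd209a cells, and Ifi30, a lysosomal thiol reductase, 272 ± 36.8 CPM and 650 ± 170 CPM in that order. For class I, 5 of 10 tested genes were higher and 2 lower. Psmb9 averaged 528 ± 77.7 CPM in Xcr1/Clec9a cells and 153 ± 31.6 CPM in Cd209a cells, and Tap1 was higher by 1.35, but the class I heavy chain H2-D1 was lower by 0.61 on the log2 scale. Cd86, a costimulatory ligand, averaged 103 ± 10.3 CPM in Xcr1/Clec9a cells and 16.7 ± 12.3 CPM in Cd209a cells (log2 change 2.60, adjusted p = 2.68e-12, edgeR).

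Xcr1/Clec9a cells were also richer in cell cycle transcripts, with 9 of 12 tested genes higher and none lower and a median log2 change of 1.36. Mki67 had 158, 134, 68.8, 53.0 and 30.1 CPM in Xcr1/Clec9a cells against 44.1, 42.9, 13.7, 22.3 and 18.6 CPM in Cd209a cells, high-fat diet samples 1 to 3 first and control samples 2 and 3 after them. The Xcr1/Clec9a value was the higher in each of the 5 samples, and the log2 change was 1.54 ± 0.25 (SE; adjusted p = 8.98e-07, edgeR). Mki67 was seen in 19.2% of Xcr1/Clec9a cells, 7.41% of Cd209a cells and 1.62% of endothelial cells, beside median depths of 7992 UMIs in Xcr1/Clec9a cells and 6053 in Cd209a cells. Ccr2 did not pass, at 430 ± 84.7 CPM in Xcr1/Clec9a cells and 480 ± 106 CPM in Cd209a cells (adjusted p = 0.286, edgeR).

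**Figure D2:**
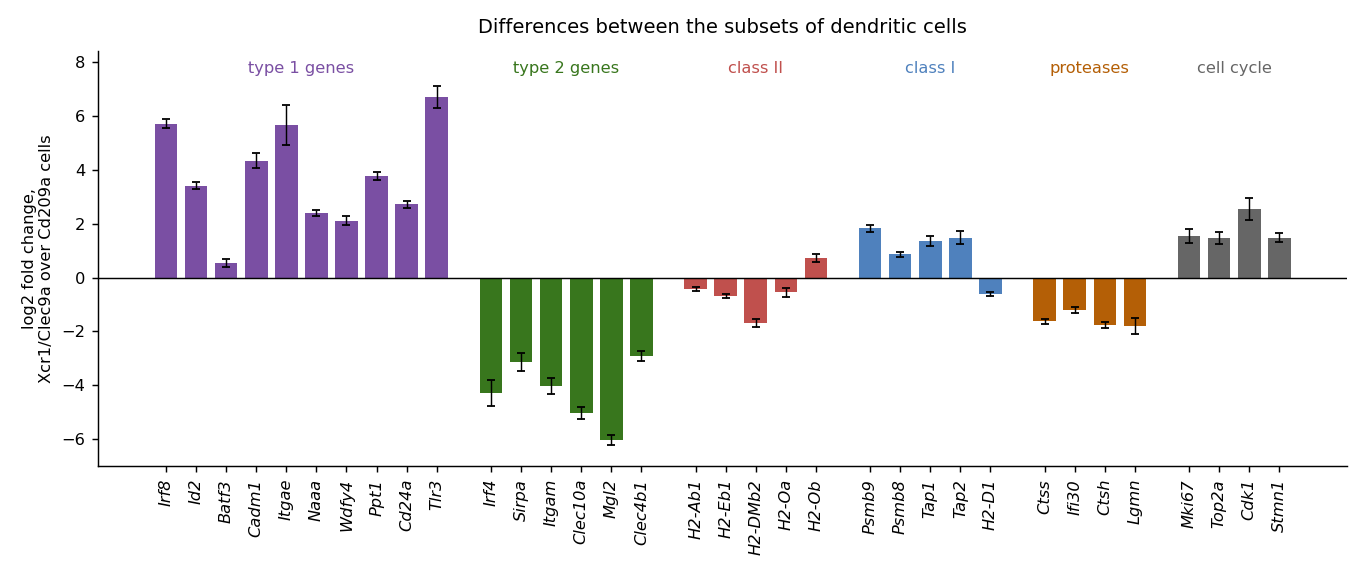
Log2 fold change of Xcr1/Clec9a over Cd209a cells from edgeR on 5 samples, with bars from 0, error bars of 1 SE and genes grouped by role. Bars reach 6.70 for Tlr3 and -6.03 for Mgl2, whereas those of H2-Ab1 (-0.41) and H2-Ob (0.73) are short.

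Genes of the mature list were higher in the 33 Ccr7 cells than in the Cd209a cells. The Ccr7 cells were too few per sample for a test, since only the second control sample held at least 10 in both subsets, so pooled values of 208457 UMIs are given with Poisson intervals that cover counting error only. Of the 24 genes of the mature list 23 had at least 2-fold more CPM in Ccr7 cells than in Cd209a cells, against 17.1% of 2619 genes outside the rule with 50 CPM or more in the higher pool, and the exception was Nfkb1, at 72.0 CPM in Ccr7 cells and 110 CPM in Cd209a cells. Fscn1, the actin bundler of mature dendritic cells, had 1770 CPM (95% interval 1594 to 1960) in Ccr7 cells and 3.63 CPM (1.74 to 6.68) in Cd209a cells. Ccl22, a ligand of CCR4, had 1343 CPM in Ccr7 cells and 2.18 CPM in Cd209a cells, and Ccl17, its relative, 2192 CPM and 205 CPM in that order. By sample Ccl17 had 272, 6350 and 25.6 CPM in the Ccr7 cells of the high-fat diet samples and 1318 and 0 CPM in those of control samples 2 and 3, so the second high-fat diet sample carried most of the pooled value. In the third sample of each diet these values lay below the Cd209a cells, at 296 CPM with high-fat diet and 39.1 CPM in control. Ccl22 by sample had 54.3, 2111 and 973 CPM with high-fat diet and 1675 and 45 CPM in control samples 2 and 3. Il12b, the p40 chain of interleukin 12 and 23, had 50 UMIs in Ccr7 cells and 1 in Cd209a cells. Relb, the NF-kB subunit of dendritic maturation, had 547 CPM in Ccr7 cells and 32.3 CPM in Cd209a cells, and Cd83 and Cd40 had 499 and 149 CPM in Ccr7 cells against 30.2 and 12 CPM in Cd209a cells.

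The share of dendritic cells among aortic cells did not differ by diet beyond the spread. It was 0.906%, 1.22% and 0.988% in high-fat diet aortas and 0.397%, 2.03% and 1.10% in control aortas, so the control samples both began below and ended above the high-fat diet samples. The means were 1.04% ± 0.162 with high-fat diet and 1.18% ± 0.821 in control (SD, n = 3 each), a difference of -0.140 percentage points (exact two-sided permutation p = 0.8, and 0.8 after Benjamini-Hochberg adjustment over 5 shares). With 3 samples against 3, no p below 0.1 can be reached. Among myeloid cells, dendritic cells made up 10.8% ± 4.21 with high-fat diet and 8.28% ± 5.01 in control, with overlapping samples (exact permutation p = 0.5).

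The Ccr7 share of the dendritic cells did not pass the test, and its samples did not overlap between the diets. It was 4.26%, 9.28% and 6.32% in high-fat diet samples and 0%, 3.26% and 3.26% in control samples, where the 0 of 26 cells in the first control sample has a Wilson upper bound of 12.9% and allows a share of up to 11.5% by a limit of 3 counts. All 3 high-fat diet values lay above all 3 control values, a difference of 4.44 percentage points (exact permutation p = 0.1, the smallest this design gives, and 0.5 after adjustment). After thinning every cell to 2000 UMIs the shares were 5.64% with high-fat diet and 1.86% in control, and the difference then had an exact permutation p of 0.3. The Xcr1/Clec9a share was 33.0% ± 13.9 with high-fat diet and 24.7% ± 3.06 in control, and the Cd209a share 52.4% ± 11 with high-fat diet and 60.9% ± 6.66 in control (SD, n = 3 each; exact permutation p = 0.4 and 0.3). The Cd209a difference was -8.51 percentage points, and -0.616 after thinning, -2.31 without the third high-fat diet sample and -2.50 with suffix 2 alone. Cells left out for Cd79a or Cd3e were fewer in high-fat diet than in control samples, as counted above, and their part in these shares was not tested. With barcode suffix 1 alone the Ccr7 share averaged 10.6% with high-fat diet and 1.61% in control, and with suffix 2 alone 5.25% with high-fat diet and 2.01% in control (exact permutation p = 0.4 for suffix 2).

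**Figure D3:**
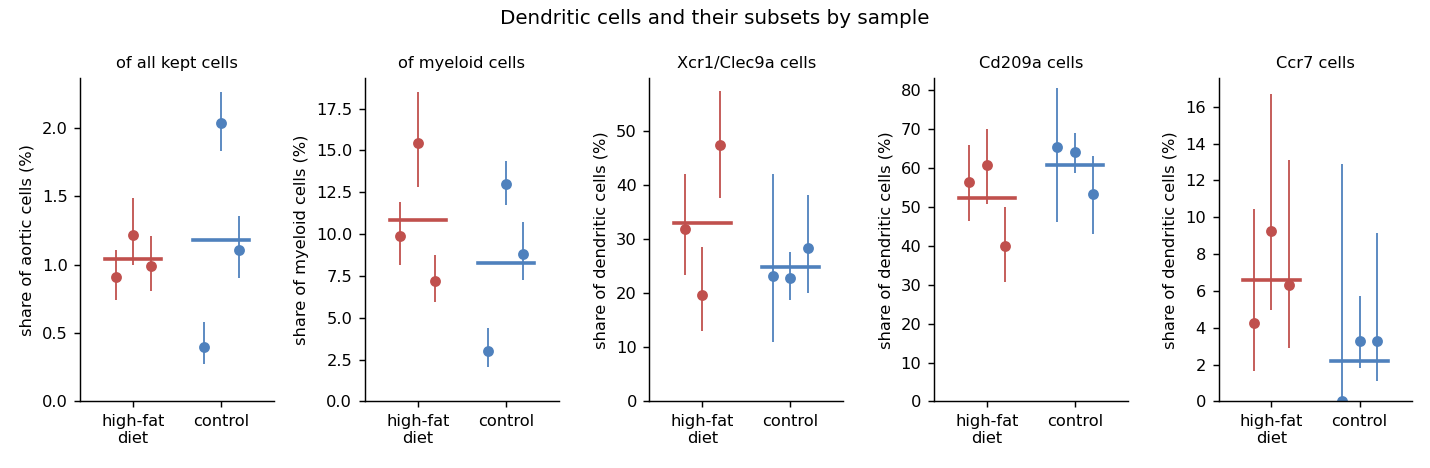
Share of dendritic cells in percent of all kept cells and of myeloid cells, and share of each subset in percent of dendritic cells, a point per sample with its 95% Wilson interval and a line at the group mean, with high-fat diet left of control. The Ccr7 panel is the one in which the 3 high-fat diet samples (4.26% to 9.28%) lie above the 3 control samples (0% to 3.26%).

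The diet comparison in dendritic cells called 3 of 5805 genes, which is 0.0517% of those tested. Basp1 and Barx2 were higher with high-fat diet and Cirbp was lower (0.0345% and 0.0172% of genes), in edgeR on the 6 sums with no covariate at an adjusted p of 0.05. There were 461 genes with an unadjusted p under 0.05, and 805 genes, or 13.9%, had groups that did not overlap. Without the first control sample, which had 26 cells, 141 genes passed, and without the second high-fat diet sample none did. Cells of barcode suffix 1 alone gave no call and those of suffix 2 alone gave 4.

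Basp1 (chr15:25363277-25413764, minus strand, GRCm38), a membrane-bound signalling protein of growth cones that also acts with WT1 as a repressor, had 88.8, 126 and 98.0 CPM in high-fat diet samples and 13.8, 28.9 and 25 CPM in control samples. The lowest high-fat diet sample stood above the highest control sample, and the means were 104 ± 19.4 CPM with high-fat diet and 22.6 ± 7.80 CPM in control (SD, n = 3 each), a log2 fold change of 2.01 ± 0.26 (SE; adjusted p = 0.0113, edgeR). In Xcr1/Clec9a cells alone Basp1 had 105, 95.7 and 62.3 CPM with high-fat diet and 19.4 and 25.1 CPM in control, and in Cd209a cells alone 54.3, 49.3 and 22.9 CPM with high-fat diet and 17.8 and 18.6 CPM in control. Only control samples 2 and 3 entered these subset CPM, while the diet tests in a subset alone used all 6 samples. In the 17 Cd209a cells of the first control sample Basp1 stood at 23.7 CPM without scaling, above the third high-fat diet sample at 22.4 CPM. The Ccr7 cells held 91 of the 273 Basp1 UMIs, at 435, 805 and 666 CPM with high-fat diet and 165 and 0 CPM in control samples 2 and 3, and their share is given above. Basp1 did not pass without the second high-fat diet sample (log2 change 1.83, adjusted p = 0.0856), without cells that met the macrophage rule (2.08, 0.0648), with barcode suffix 1 alone (1.90, 0.623) or in Xcr1/Clec9a cells alone (2.09, 0.182, edgeR).

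Barx2 (chr9:31846044-31913462, minus strand) had 26.1, 33.6 and 53.1 CPM in high-fat diet samples and 0, 5.25 and 4.69 CPM in control samples. The groups did not overlap, and the log2 fold change was 2.94 ± 0.45 (SE; adjusted p = 0.0232, edgeR). Of its 84 UMIs 73 lay in Xcr1/Clec9a cells, 8 in the cells of no subset, 3 in Ccr7 cells and 0 in Cd209a cells. In Xcr1/Clec9a cells it had 48.3, 121 and 105 CPM with high-fat diet and 15.9 and 10.0 CPM in control samples 2 and 3. The Xcr1/Clec9a share did not pass the test between diets, as given above. Within those cells alone Barx2 did not pass in a test on all 6 samples (log2 change 2.71, adjusted p = 0.141, edgeR). It did not pass in DESeq2 (3.07, 0.109), with stricter exclusion of lymphocyte genes (adjusted p = 0.0699), without cells that met the macrophage rule (0.135), or without high-fat diet sample 2 or 3 or control sample 2 or 3. Over these settings the log2 change ran from 2.63 to 3.25.

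Cirbp (chr10:80165985-80172786, plus strand), a cold-inducible RNA-binding protein, had 24.4, 32.2 and 13.3 CPM in high-fat diet samples and 96.9, 81.4 and 92.3 CPM in control samples. All high-fat diet values lay below all control values, with a log2 fold change of -1.89 ± 0.29 (SE; adjusted p = 0.0232, edgeR). Rbm3, the other cold-inducible RNA-binding gene, had 246, 227 and 289 CPM with high-fat diet and 346, 771 and 735 CPM in control, also without overlap, but did not pass (adjusted p = 0.108, edgeR). The Cirbp call was lost in DESeq2 (adjusted p = 0.109), in Cd209a cells alone (0.0522), and when any 1 sample other than the first control sample was left out. It was also lost with stricter exclusion of lymphocyte genes (0.0804), without cells that met the macrophage rule (0.135), and with barcode suffix 1 (0.623) or suffix 2 (0.274) alone. Over the settings that lost it the log2 change ran from -2.23 to -1.62.

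The next genes by p did not pass. Alyref, an mRNA export factor (adjusted p = 0.0740), had 143, 179 and 111 CPM with high-fat diet and 34.6, 32 and 65.7 CPM in control, and Ifi205, an interferon-activated gene carried by Xcr1/Clec9a cells (0.0991), had 218, 176 and 213 CPM with high-fat diet and 96.9, 82.9 and 103 CPM in control. Lmna, the nuclear lamina protein (0.107), had 150, 216 and 169 CPM with high-fat diet and 96.9, 79.8 and 75.1 CPM in control. On the lower side, Upb1, an enzyme of pyrimidine breakdown (0.107), had 29.6, 33.6 and 31.5 CPM with high-fat diet and 62.3, 73.5 and 76.6 CPM in control. Ptprcap, a CD45-associated protein of lymphocytes (0.108), had 6.97, 9.81 and 13.3 CPM with high-fat diet and 41.5, 29.4 and 56.3 CPM in control. Lyz1, a lysozyme (0.175), had 26.1, 26.6 and 46.5 CPM with high-fat diet and 48.5, 143 and 82.9 CPM in control. In each of these 6 genes the high-fat diet and control samples did not overlap. The genes were chosen by their small p in these same samples, so this separation adds no evidence. Among all tested genes 13.9% lay apart in either direction.

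The same direction was seen in the macrophages for the 3 called genes and Alyref, and the difference of the effects did not pass. Basp1 averaged 45.1 CPM in high-fat diet macrophages and 17.1 CPM in control macrophages, Barx2 31.9 and 12.7 CPM in that order, Cirbp 34.0 and 88.2 CPM, and Alyref 92.0 and 30.8 CPM. The interaction of cell class and diet gave an adjusted p of 0.927 for Basp1, 0.320 for Barx2 and 1 for Cirbp and Alyref (edgeR). Across 12380 genes the interaction called 4, or 0.0323%, of which 0.0162% were higher and 0.0162% lower.

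**Figure D4:**
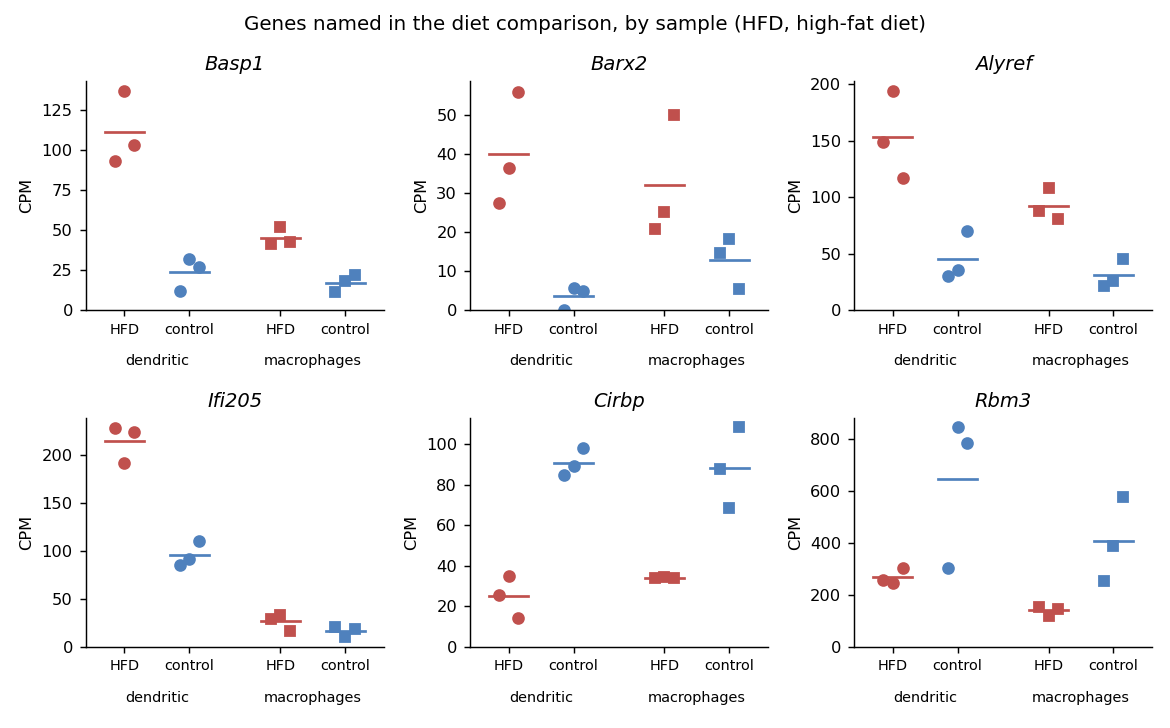
Levels in CPM of 6 genes named in the diet comparison, a point per sample and a line at each mean, in dendritic cells (circles) and macrophages (squares), with high-fat diet left of control. The CPM were scaled over the sums of both classes and so differ slightly from those given for dendritic cells alone. Basp1, Barx2 and Cirbp passed the test in dendritic cells, and the macrophage means lie on the same side, for Cirbp at 34.0 CPM with high-fat diet and 88.2 CPM in control.

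The gene lists were next compared between diets by counts and medians alone, beside 51.5% of all tested genes with a positive log2 fold change and a median of 0.01 over all genes. No gene of any list passed except Cirbp, so the values that follow are descriptions. All 14 tested heat shock genes had a positive log2 change, with a median of 0.80 and groups without overlap for 4 of the 14, against 7.87% of all genes that lay apart on the high side. Hsp90aa1, a cytosolic chaperone, had 373, 601 and 576 CPM with high-fat diet and 291, 275 and 269 CPM in control, without overlap (log2 change 0.90, adjusted p = 0.260, edgeR). Hspa5, the chaperone of the endoplasmic reticulum, had 277, 409 and 334 CPM with high-fat diet and 242, 184 and 222 CPM in control, also without overlap (adjusted p = 0.364, edgeR).

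Heat shock sums were compared in the other cell classes as well. The summed level was 5355, 5225 and 5914 CPM with high-fat diet and 4239, 3030 and 3037 CPM in control in dendritic cells, 5219, 6629 and 5956 CPM with high-fat diet and 4317, 2690 and 2507 CPM in control in macrophages, and 5860, 6783 and 6807 CPM with high-fat diet and 3874, 3375 and 3044 CPM in control in endothelial cells. In each class every high-fat diet sum lay above every control sum. Cirbp and Rbm3 summed to 268, 257 and 291 CPM with high-fat diet and 473, 711 and 748 CPM in control in dendritic cells. In endothelial cells that sum was 195, 174 and 203 CPM with high-fat diet and 397, 446 and 537 CPM in control, and the groups did not overlap there either. What these sums owe to handling of the samples was not tested.

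Cell cycle genes had positive changes in 12 of 14 tested, with a median of 0.75. Of the 14, 6 had groups without overlap, beside 13.9% of all tested genes that lay apart in either direction. The summed list overlapped, at 1863, 1955 and 1423 CPM with high-fat diet and 827, 1485 and 963 CPM in control. Mki67 had 88.8, 60.2 and 46.5 CPM with high-fat diet and 20.8, 32 and 25 CPM in control, a log2 change of 1.18 ± 0.29 (SE; adjusted p = 0.264, edgeR), and Top2a, the topoisomerase of dividing cells, had 113, 98.1 and 86.3 CPM with high-fat diet and 48.5, 65.1 and 25 CPM in control. Both genes lay apart between the diets. By cells, Mki67 was seen in 14, 14 and 11 of the 94, 97 and 95 high-fat diet members and in 2, 31 and 7 of the 26, 337 and 92 control members.

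Mature genes had positive changes in 16 of 20 tested, with a median of 0.54. Groups did not overlap for 4 of the 20, beside 13.9% of all tested genes that lay apart in either direction. Relb had 67.9, 71.4 and 69.7 CPM with high-fat diet and 20.8, 41.5 and 51.6 CPM in control, and Cd83 76.7, 93.8 and 98.0 CPM with high-fat diet and 20.8, 63.5 and 42.2 CPM in control (adjusted p = 0.428 and 0.376, edgeR). Both lay apart, but Fscn1 overlapped, with 66.2, 153 and 98.0 CPM with high-fat diet and 0, 97.6 and 34.4 CPM in control. Ccr7 itself, part of the rule and given with no test, had 34.8, 111 and 86.3 CPM with high-fat diet and 6.92, 40.4 and 25 CPM in control. In Cd209a cells alone 8 of 10 tested mature genes had a positive change, with a median of 0.24. In Xcr1/Clec9a cells alone it was 1 of 6, with a median of -0.33, and the summed list stood at 366, 462 and 533 CPM with high-fat diet and 868, 639 and 649 CPM in control, lower with high-fat diet and without overlap.

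The class II and class I lists showed no shift of this kind. Of 8 tested class II genes 4 had a positive and 4 a negative change, with a median of -0.01. H2-Ab1 had 11702, 13901 and 11201 CPM with high-fat diet and 7851, 14033 and 13385 CPM in control, so the groups overlapped, with a log2 change of 0.06 ± 0.29 (SE; adjusted p = 0.991, edgeR). Class I genes gave 6 of 10 positive with a median of 0.08. The summed endolysosomal list stood at 20570, 22780 and 23580 CPM with high-fat diet and 16640, 19840 and 19210 CPM in control, without overlap. The summed costimulation list stood at 381, 407 and 373 CPM with high-fat diet and 310, 266 and 304 CPM in control, also apart. In Xcr1/Clec9a cells alone and in Cd209a cells alone both sums overlapped between the diets. Type 1 genes gave 13 of 17 positive with a median of 0.19, Itgae among them at 26.1, 15.4 and 34.9 CPM with high-fat diet and 6.92, 7.87 and 12.5 CPM in control (adjusted p = 0.364, edgeR), and type 2 genes 5 of 12 with a median of -0.20. Klf2 had 213, 221 and 435 CPM with high-fat diet and 263, 241 and 307 CPM in control, with overlap (adjusted p = 0.969, edgeR).

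All 10 tested monocyte genes had a negative change, with a median of -0.56 and 5 of the 10 without overlap, against 5.99% of all genes that lay apart on the low side. Ccr2 had 329, 382 and 433 CPM with high-fat diet and 498, 456 and 518 CPM in control, without overlap (log2 change -0.36, adjusted p = 0.681, edgeR). Lists of other cell types are given beside it. The summed B-cell list stood at 58.9, 36.2 and 36.8 CPM with high-fat diet and 73.9, 65.3 and 173 CPM in control, without overlap. The fibroblast list stood at 1669, 1885 and 1721 CPM with high-fat diet and 5132, 1825 and 1110 CPM in control, and the red cell list at 663, 759 and 2543 CPM with high-fat diet and 901, 5343 and 2020 CPM in control. The first control sample had the highest sums of fibroblast, smooth muscle and resident macrophage genes in its dendritic cells, the last at 3781 CPM against 915 to 1569 CPM in the other samples. It also had the highest sums of T and NK cell genes (340 CPM against 30.4 to 65.4 CPM in the other samples), endothelial genes (2060 against 95.5 to 1060 CPM) and adipocyte genes (103 against 3.46 to 45.3 CPM). Its endothelial sum was 341 CPM in its Xcr1/Clec9a cells and 451 CPM in its Cd209a cells, so its 3 cells of no subset carried most of it. Its T and NK sum was 31.0 CPM in Xcr1/Clec9a cells and 534 CPM in Cd209a cells. The part of these lists in the diet differences was not tested.

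**Figure D5:**
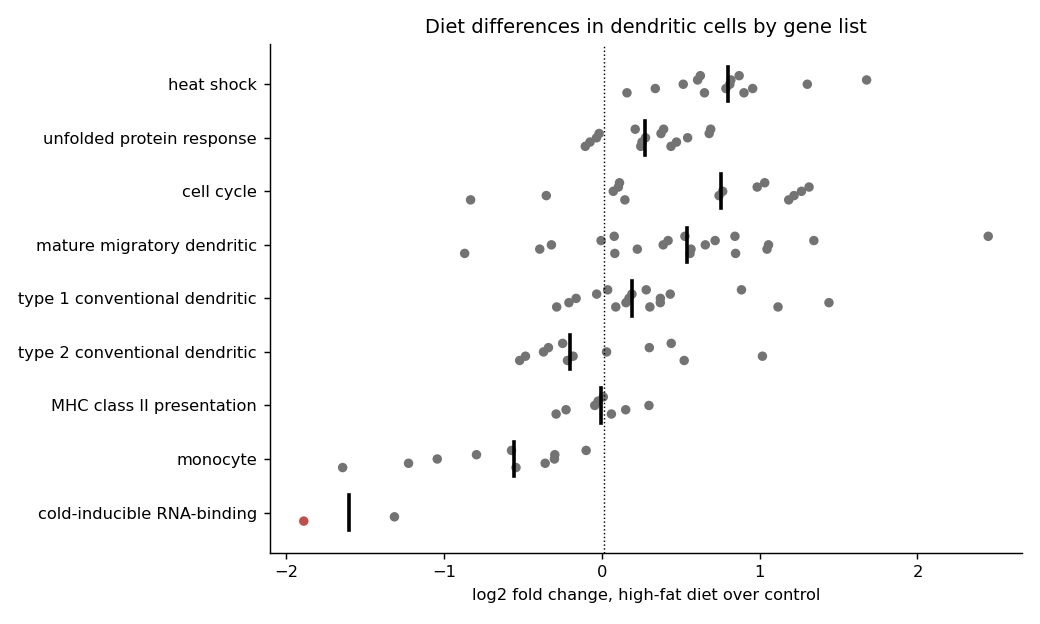
Log2 fold change of high-fat diet over control in dendritic cells for every tested gene of 9 lists, a point per gene, with a bar at each list's median and a dotted line at the median of all genes (0.01). The red point is Cirbp, the gene that passed, and the medians run from 0.80 for heat shock genes to -0.56 for monocyte genes and -1.60 for the cold-inducible genes Cirbp and Rbm3.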

How the data were processed

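Whole aortas were profiled by 3' single-cell RNA sequencing in 6 samples, 3 high-fat diet and 3 control. The submitters' processing notes name Cell Ranger 3.0 and mm10. The deposited matrices hold raw UMI counts of 27998 genes in 62838 cells, from 41388034 to 83886418 counts per sample. Each matrix was filtered (at least 300 genes, under 20% mitochondrial counts), and 59413 cells remained. The members, gene lists and tests were chosen with earlier results of these data known.

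Counts were summed per sample and class. edgeR 4.0.16 (limma 3.58.1, R 4.3.3) ran TMM scaling, its default filter on low counts, robust quasi-likelihood fits and Benjamini-Hochberg adjustment at 0.05, with the sample as a block where 2 classes of the same samples were compared. SEs are the log2 fold change over the square root of F. Shares were tested by exact permutation in scipy 1.17.1 and their intervals are Wilson 95% intervals. Intervals and floors cover counting error only. Fits were tested on simulated data with 100 genes changed 2-fold and 100 changed 4-fold. For the diet comparison 37% of the 100 simulated 2-fold and 88% of the 100 simulated 4-fold changes were recovered. Of the 2-fold genes 94 passed the filter on low counts, and there were 7 false calls over 5385 genes.

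Genes named are the rule genes, up to 12 called genes in each direction with the largest change and at least 50 CPM for the class comparisons, for the diet the called genes, or where fewer than 5 were called the 5 smallest p in each direction at 20 CPM or more, and the leading members of each list. The rankings skipped genes of haemoglobin and immunoglobulin, the sex-linked genes Xist, Tsix, Ddx3y, Eif2s3y, Kdm5d and Uty, and models without a gene name. Other genes of the sex chromosomes, such as Rbm3, stayed in. A few further genes were named after their values were seen. Doublets, scored with Scrublet in scanpy 1.11.5, stayed in, and were left out as an alternative. The other alternatives were DESeq2 1.42.0, its size factors, no filter on low counts, each sample left out, a block for the replicate number, each subset alone, stricter cell rules, each barcode suffix alone and thinning to 2000 UMIs. Gene coordinates are those of GENCODE vM21 and promoters those of RefSeq on GRCm38.p6. Results for some genes are not reported here.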

Additional observations from a re-analysis of the deposited data

Results flagged for a closer look

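In 4 genes the difference between diets was not the same in dendritic cells as in macrophages, by the interaction term of edgeR over 12380 genes. Ttn, the giant muscle protein titin, gave a log2 difference of 4.11 ± 0.71 (SE; adjusted p = 0.00749, edgeR). In dendritic cells it had 34.6, 19.7 and 1.75 CPM with high-fat diet and 12.1, 0.575 and 0 CPM in control, and in macrophages 13.5, 10.3 and 3.02 CPM with high-fat diet and 114, 3.43 and 3.13 CPM in control. The groups overlapped in both classes, the first control sample alone stood at 114 CPM, and without that sample the adjusted p was 0.195. The call was also lost in DESeq2 (0.417), without the first high-fat diet sample (0.192) and with barcode suffix 2 alone (1.45, adjusted p = 1). Smooth muscle sums were also highest in the dendritic cells of that sample.

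Cxcl9, a chemokine induced by interferon gamma, gave 3.06 ± 0.47 (SE; adjusted p = 0.0171, edgeR). It had 25.5, 41.0 and 148 CPM with high-fat diet and 0, 64.4 and 78.2 CPM in control in dendritic cells, and 2.00, 5.62 and 3.74 CPM with high-fat diet and 1.78, 26.8 and 40.7 CPM in control in macrophages. With a stricter exclusion of lymphocyte genes the difference was 0.84 (adjusted p = 1), and without cells that met the macrophage rule 0.44 (adjusted p = 1, edgeR). The adjusted p was also above 0.05 in DESeq2 (0.0831), without high-fat diet sample 1 (0.171) or 3 (0.0658), with doublets left out (0.0785) and with either barcode suffix alone (1).

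Lyz1 gave -1.57 ± 0.30 (SE; adjusted p = 0.0171, edgeR). Its values were 27.3, 28.9 and 48.9 CPM with high-fat diet and 42.5, 157 and 88.2 CPM in control in dendritic cells, and 227, 254 and 361 CPM with high-fat diet and 168, 363 and 257 CPM in control in macrophages. The call was lost without high-fat diet sample 1 (0.242) or 3 (0.0658) or control sample 2 (0.0985), with stricter exclusion of lymphocyte genes (0.0593), with a dendritic sum of at least 3 (-0.54, adjusted p = 1) and with barcode suffix 1 alone (-0.75, adjusted p = 1). Hba-a2, a haemoglobin chain of red cells, gave -1.46 ± 0.28 (SE; adjusted p = 0.0171, edgeR). Its values were 107, 111 and 334 CPM with high-fat diet and 109, 1343 and 338 CPM in control in dendritic cells, and 791, 424 and 1263 CPM with high-fat diet and 117, 2336 and 704 CPM in control in macrophages, and the call was lost in DESeq2 (adjusted p = 0.184), without the first high-fat diet sample (0.510), with doublets left out (0.0536) and with barcode suffix 1 alone (-0.45, adjusted p = 1). Of its 2881 UMIs in dendritic cells 1072 lay in Ccr7 cells, and the 11 Ccr7 cells of the second control sample stood at 14330 CPM.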

How the results depend on the processing

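The diet comparison rests on few calls. The main count of 3 became 56 with no filter on low counts, 1 in DESeq2, 0 in Xcr1/Clec9a cells alone, 5 with a dendritic sum of at least 3, 0 without cells that met the macrophage rule and 0 with barcode suffix 1 alone, and ranged from 0 to 141 when 1 sample was left out. The dendritic and macrophage comparison called 2805 genes with suffix 1 alone and 3567 to 4544 with 1 sample left out. The interaction called 30 with no filter, 2 in DESeq2, 2 with doublets left out, 9 at a mitochondrial limit of 10%, 21 with a sum of at least 3, 15 with stricter lymphocyte exclusion, 24 without cells that met the macrophage rule, 11 with suffix 1, 49 with suffix 2 and 1 to 30 with 1 sample left out. The comparison of subsets called 452 genes in DESeq2, 450 with suffix 1, 516 with suffix 2 and 575 to 839 with 1 sample left out. The cause of these changes was not tested. The difference in dendritic share of cells was 0.0336 percentage points with stricter lymphocyte exclusion and -0.531 to 0.288 with 1 sample left out, that of the myeloid share was -3.40 with suffix 1 and -0.0721 to 4.91 with 1 sample left out, and that of the Xcr1/Clec9a share was -0.912 with suffix 1 and -1.14 after thinning. The diet change of H2-Ab1, not called, was -0.0119 in Xcr1/Clec9a cells alone, -0.0185 with stricter lymphocyte exclusion, -0.19 with suffix 1 and -0.17 to 0.22 with 1 sample left out, and that of Klf2, not called, was -0.0769 in Cd209a cells alone, -0.0984 with suffix 2 and -0.31 to 0.28 with 1 sample left out. Deviations of same-numbered samples correlated at r = 0.0488, 0.173 and -0.0742, against -0.157 to 0.106 for samples of unlike number. With 3 samples per group these values cannot settle whether the numbers pair the samples. A replicate block gave 3 called genes, of which 2 were among the main 3, and Cirbp was not called (adjusted p = 0.0590, edgeR). The comparison of Ccr7 with Cd209a cells could not be fitted, and its alternatives were not run. The first control sample, with 26 dendritic cells and 135413 UMIs, limits the depth of its values most.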
